A study of Mus musculus with 8 samples.

Results

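The 10 genes described here are p53 itself (Trp53) and 9 genes known for acting downstream of it in growth arrest and cell death: Mdm2, Cdkn1a, Ccng1, Bax, Bbc3, Pmaip1, Gadd45a, Phlda3 and Gtse1. They were found in the deposited tables by gene symbol and make up 10 of the 55471 genes there. RNA was sequenced from mouse blastocysts at embryonic day 4.5 in 8 libraries: 3 labelled wild type (WT), 2 labelled Isca2 -/- (KO) and 3 labelled Isca2 G77S/G77S (G77S). Isca2 encodes a mitochondrial protein that helps build iron-sulfur clusters, and G77S is a substitution in it. The labels' protocols describe, for every group, hormone-stimulated Isca2+/- females mated with Isca2+/- males and embryos grown in culture. The cross behind the G77S embryos is not named there, nor are the number and sex of embryos in a library, the day or the litter. Since no label ties replicates to different litters or cultures, p-values below reflect the library-to-library spread alone, part of which may be technical.

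p53 is a transcription factor that is made all the time and kept low by MDM2, a ubiquitin ligase that marks it for degradation. DNA damage and other stresses loosen this hold, and p53 then binds elements near its targets, among them Mdm2 itself, which closes a feedback loop. Some targets halt the cell cycle (p21, the product of Cdkn1a), and others open the mitochondrial route to cell death (BAX and the BH3-only proteins PUMA and NOXA, the products of Bbc3 and Pmaip1). Much of this control acts on the p53 protein, which RNA counts do not measure.

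The promoters of these genes were searched for the element that p53 binds. The full element is a pair of decamers with a short spacer, and a decamer is its own reverse complement in pattern, so a search finds both strands. RefSeq windows (GRCm38.p6) of 300 bases, 250 before and 50 after an annotated start, were present for 9 of the 10 genes, and 7 of these 9 held at least 1 decamer. Over all 27025 genes with a window, 9.55% held one, and 8.36% of the 32851 windows did. A pair with a spacer of at most 13 bases was found in 0.073% of all windows, 24 in number, and among the 9 genes in Cdkn1a alone. The windows of Bbc3 and Phlda3 held no match. A match describes the letters and is not evidence of binding. The stretches below are given 5′ to 3′ on the strand of the gene, with the decamer in capitals. They are the 250 bases before the start of Cdkn1a (its first window), the one gene with a pair, and of Mdm2, the feedback gene. For the others, 30 bases around the match are given.
Cdkn1a (chr17:29090729-29090978, plus strand): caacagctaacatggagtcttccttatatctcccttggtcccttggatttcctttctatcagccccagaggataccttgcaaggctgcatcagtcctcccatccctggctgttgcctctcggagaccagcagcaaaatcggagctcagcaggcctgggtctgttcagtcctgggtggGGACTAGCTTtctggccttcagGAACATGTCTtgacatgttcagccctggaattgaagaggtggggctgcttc
Mdm2 (chr10:117710759-117711008, minus strand): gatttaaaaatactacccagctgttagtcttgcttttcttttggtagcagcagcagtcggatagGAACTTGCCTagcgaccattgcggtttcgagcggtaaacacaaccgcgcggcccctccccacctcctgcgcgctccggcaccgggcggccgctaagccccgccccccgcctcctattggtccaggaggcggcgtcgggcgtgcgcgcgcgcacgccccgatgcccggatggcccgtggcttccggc
Trp53 (chr11:69580274-69580303, plus strand): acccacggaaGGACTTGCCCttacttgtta
Ccng1 (chr11:40755452-40755481, minus strand): agacctgcccGGGCAAGCCTtggcactgaa
Bax (chr7:45467080-45467109, minus strand): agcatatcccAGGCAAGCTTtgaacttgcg
Gadd45a (chr6:67037428-67037457, minus strand): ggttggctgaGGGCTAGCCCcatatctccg
Gtse1 (chr15:85859945-85859974, plus strand): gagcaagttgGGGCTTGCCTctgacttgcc

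The decamers of Cdkn1a began 73 and 51 bases before the start in its first window, and its second window, at a later start, held no match. That of Mdm2 began 186, Trp53 75, Ccng1 185, Bax 201 and Gadd45a 40 bases before the start. The decamer of Gtse1 lay 9 bases after the start in its second window. Genes with a match did not share a direction in the RNA data below. In every G77S library Gtse1 was higher, and Mdm2 lower, than in any WT library. Neither was called in G77S against WT (adjusted p = 0.132 and 0.0987 with edgeR). Both were lower in every KO library than in any WT library, again not called (adjusted p = 0.153 and 0.0529). Gadd45a, with no count in any WT library, could only be higher than WT.

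Libraries held 10323965 to 23842619 expected counts and detected 14118 to 17560 genes with 1 count or more. Isca2, the targeted gene, stood at 86.9, 173 and 154 CPM (counts as a share of the scaled library size, set to a common total) in WT, at 4.84 and 6.20 CPM in KO and at 89.1, 105 and 133 CPM in G77S, so both KO libraries lay below all others. In KO against WT it fell, with edgeR giving -4.64 on the log2 scale (SE 0.41, adjusted p = 0.00387). G77S libraries were quantified with an assumed fragment length of 182.4 to 186.1 bases, and the remaining 5 with 243.7 to 292.1 bases. In any comparison with G77S, the genotype and a possible batch of library preparation cannot be told apart.

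The lineage markers also moved with genotype, and not all in 1 direction. Trophectoderm markers (12 genes) summed to 31760 to 33920 CPM in WT, 33010 to 35890 in KO and 8958 to 12500 in G77S. Fabp3 made up most of that sum, at 18210 CPM on average in WT and 4606 CPM in G77S. Of the 11 tested, 5 fell in G77S against WT (Krt18, Elf5, Id2, Fabp3 and Tspan8), where 2.09% of all genes fell. The trophectoderm regulators did not all follow Fabp3. Log2 fold changes in G77S against WT were 0.43 for Cdx2, 1.05 for Tead4, -0.04 for Gata3 and -0.23 for Tfap2c, none of them called. Elf5 (-4.43, called) and Eomes (-0.87, not called) were lower in every G77S library than in any WT library. The epiblast markers Sox2 and Esrrb and the primitive endoderm markers Gata4, Sox17 and Sox7 were at 0 in all WT libraries, although both lineages are known to be present in blastocysts of this stage.

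Summed epiblast markers (10 genes) spanned 257.5 to 319.4 CPM in WT, 225.3 to 265.7 in KO and 221.9 to 344 in G77S, but the WT sum was mostly Nanog, at 261.4 CPM on average against 40.4 in KO and 119.3 in G77S. Of the 9 tested, 7 had positive values in KO against WT and 5 were higher without overlap (13.1% of all genes), with Utf1 called higher (0.0788% of all genes). In G77S against WT 8 of 9 had positive values and 6 were higher without overlap (17.2% of all genes), with Utf1 and Pou5f1 called higher (1.3%). Nanog went the other way in both, at -2.695 in KO (adjusted p = 0.0529) and -1.13 in G77S (adjusted p = 0.107). Primitive endoderm markers (12 genes) summed to 1141 to 1490 CPM in WT, 1072 to 1546 in KO and 587.7 to 1171 in G77S, of which Dab2 was 1279 CPM on average in WT. All of the 11 tested but Dab2 (10 genes) were positive in KO against WT. Of the 11, 9 were higher without overlap (13.1% of all genes), and none was called (0.0788%). Several were near the floor in WT, with total counts of 5 for Col4a1, 10 for Col4a2, 1 for Pdgfra and 4 for Cubn. In G77S against WT 8 of these 11 markers were positive and 5 higher without overlap (17.2% of all genes), with Col4a1 called higher (1.3%). Sox2, Esrrb, Sox17 and Sox7 had no WT counts and were tested only through their counts in the other genotypes. Their differences from WT could only be positive, so the epiblast and primitive endoderm counts are a description only. Of 10 cumulus cell markers, 9 were at 0 in WT and KO and 8 in G77S, with sums of at most 13.6 CPM. The 10 oocyte transcripts summed to 35.6 to 104 CPM in WT, 44.1 to 88.4 in KO and 94.3 to 144 in G77S. Most of that sum was Ooep, at 63.8 CPM on average in WT, 59.4 in KO and 121.6 in G77S. Zp1, Zp2 and Oosp1 were at 0 in G77S. Of the 6 oocyte transcripts tested, 3 were positive and 3 negative in G77S against WT (median -1.89), none called. In bulk embryos, fewer cells of a type and less RNA per cell cannot be told apart, and the part that lineage make-up plays in the values below was not tested.

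Across the set, Pmaip1 and Gadd45a rose in G77S against WT, Gtse1 rose in G77S against KO, and no gene of the set passed the test in KO against WT. The test was edgeR's quasi-likelihood test over 13953 genes, with a call at an adjusted p under 0.05, and 9 of the 10 genes were tested. Bbc3 fell below the filter on low counts. Gadd45a, with no count in any WT library, passed that filter only through the G77S libraries where it is high, so its difference was bound to be seen and the counts over tested genes below are a description only. KO and G77S were both set against the same 3 WT libraries, so those comparisons are not independent of each other.

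In KO against WT, 0 of the 9 tested genes were called higher, where 0.0788% of all tested genes were, and 0 were called lower, against 0.043%. At an unadjusted p under 0.05 there were 5 of 9, against 13% of all genes, and DESeq2 called 3 of the 9, where it called 650 of all genes and edgeR 17. Libraries did not overlap between KO and WT for 2 genes that were higher (background 13.1%) and 2 that were lower (background 12.5%). The median log2 fold change of the 9 genes was -0.34, against -0.06 over all tested genes. It was -1.13 without KO replicate 1 and 0.17 without KO replicate 2, so its sign depended on which KO library was kept. In G77S against WT, 2 of 9 were called higher (background 1.3%) and 0 lower (background 2.09%), and 5 of 9 had an unadjusted p under 0.05 (background 20%). Groups did not overlap for 5 higher genes (17.2%) and 1 lower gene (11.8%), and the median was 0.66 against 0.03. In G77S against KO, 1 of 9 was called higher (1.76%), 0 were called lower (2.43%) and 3 of 9 had an unadjusted p under 0.05 (20.7%). All 9 fold changes were positive, with a median of 0.94 against 0.10. A further count gave 5 genes that lay higher without overlap (24.9%), and 0 lay lower without overlap (20%). That median was 1.52 without KO replicate 1 and 0.36 without KO replicate 2.

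**Figure D1:**
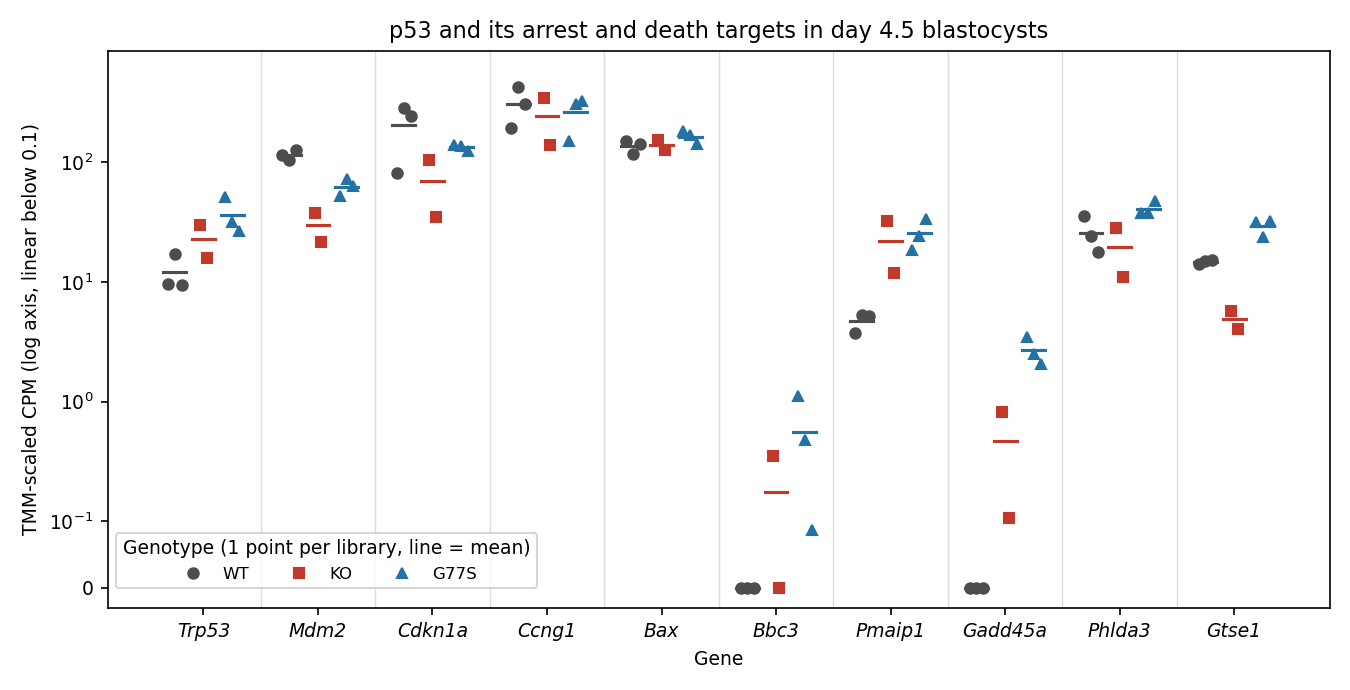
Level of each of the 10 genes in every library, as CPM scaled between libraries on a log axis with values of 0 drawn at the foot, coloured by genotype with a line at each mean. Pmaip1 lies at 3.74 to 5.26 CPM in WT and 11.9 to 33.8 CPM elsewhere, and Mdm2 at 104.8 to 125.9 CPM in WT and 21.8 to 72.6 CPM elsewhere.

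Levels can be set between genes only per length, as TPM (transcript counts per length, scaled to a fixed total). In WT, Bax stood at 178.1 ± 44.1 TPM and Cdkn1a at 176.9 ± 82.6 TPM (SD, n = 3 here and for the following genes), which did not differ beyond their spread. Ccng1 followed at 71.3 ± 21.6 TPM and Mdm2 at 35.2 ± 4.93 TPM. Phlda3 lay at 18.1 ± 8.03 TPM. Below it, Trp53 at 5.91 ± 1.90 TPM and Gtse1 at 4.68 ± 0.354 TPM overlapped. Pmaip1 lay lower, at 1.70 ± 0.467 TPM, and Gadd45a and Bbc3 were listed at 0. The blastocysts thus carried high levels of the pore-forming gene Bax and the arrest gene Cdkn1a, and little or no RNA of the BH3-only genes Pmaip1 and Bbc3. In WT replicates 2 and 3 Cdkn1a was above Bax. In both KO libraries Bax was the highest of the set, at 185 and 131.5 TPM. In G77S, Bax stood at 244.3, 265.7 and 208.5 TPM and above Cdkn1a, at 134.1, 147.5 and 132.7 TPM, in every library.

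**Figure D2:**
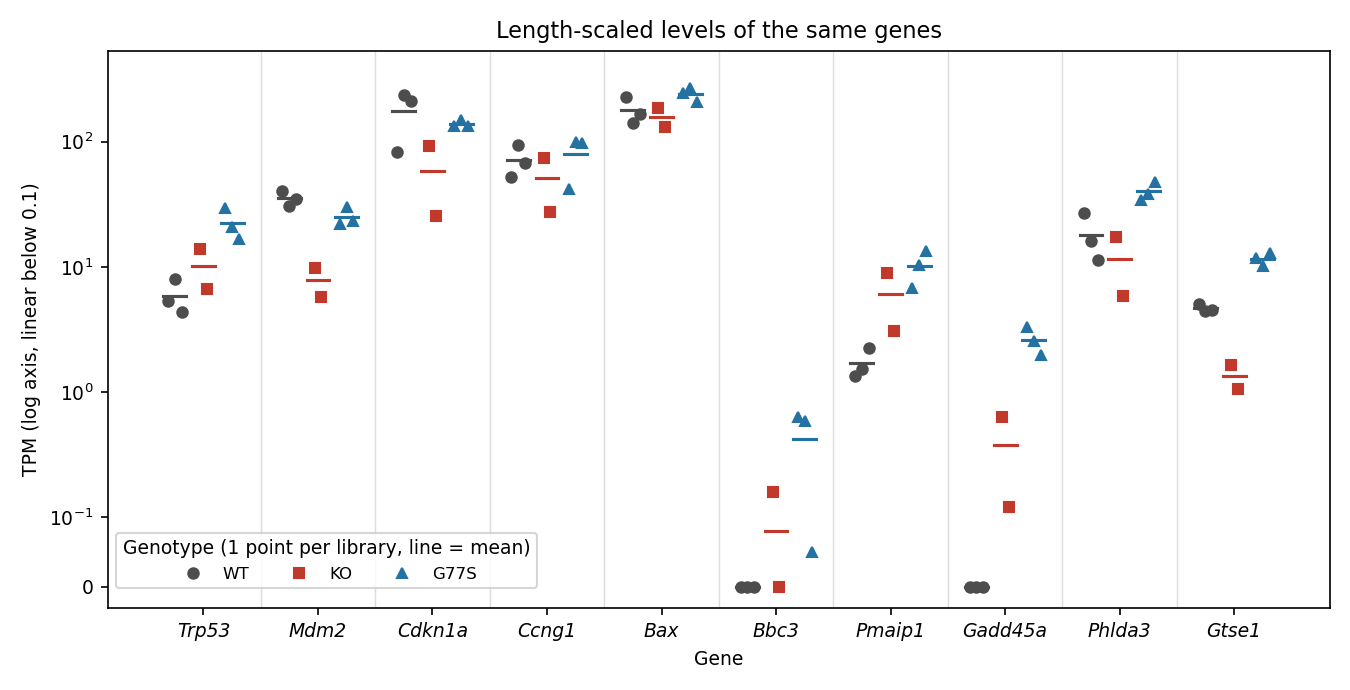
TPM of the 10 genes in the 8 libraries on a log axis, 1 point per library and a line at the mean, which allows levels to be read between genes. Bax and Cdkn1a lead in WT, and Gadd45a and Bbc3 are at 0 there.

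Trp53 (chromosome 11, 69580359 to 69591873, GRCm38, plus strand) stood at 9.65, 17.1 and 9.36 CPM in WT, at 29.9 and 15.95 CPM in KO, and at 51.4, 31.6 and 26.8 CPM in G77S. Every G77S library was above every WT library, whereas KO replicate 2 lay inside the WT range. The log2 fold change was 1.61 in G77S against WT (SE 0.42, adjusted p = 0.0644), short of the threshold. It passed with no filter (adjusted p = 0.00658), with a stricter filter (0.0363), with only those 2 groups fitted (0.0489), with DESeq2 (0.0048) and with limma on TPM (0.0171 with a pseudocount of 1). Against WT the KO value was 0.93 (SE 0.45, adjusted p = 0.411), and G77S against KO was 0.68 (SE 0.47, adjusted p = 0.448).

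Mdm2 (chromosome 10, 117688875 to 117710758, minus strand), the ligase that holds p53 down, ran the other way. It stood at 116, 104.8 and 125.9 CPM in WT, at 37.7 and 21.8 CPM in KO, and at 52.1, 72.6 and 63.25 CPM in G77S. The 3 genotypes did not overlap: WT was highest, G77S between and KO lowest. In KO against WT the log2 fold change was -1.96 (SE 0.32, unadjusted p = 9.25e-05, adjusted p = 0.0529), which missed the threshold. It passed with no filter (4.85e-05), with the stricter filter (0.029), with DESeq2 (3.91e-07), with limma on TPM (0.0177 with a pseudocount of 1) and without KO replicate 1 (0.0489). G77S against WT gave -0.88 (SE 0.27, adjusted p = 0.0987, and 0.0165 with DESeq2). G77S against KO gave 1.07 (SE 0.31, adjusted p = 0.0827), which passed with the stricter filter (0.0452), DESeq2 (0.0121) and limma on TPM (0.0116). The abundance-weighted transcript length of Mdm2 moved between 2376 and 2923 bases over the libraries.

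Gtse1 (chromosome 15, 85859745 to 85876573, plus strand) is expressed in G2 and mitosis, binds microtubules and can take p53 out of the nucleus. Its level was 14.05, 14.99 and 15.2 CPM in WT, 5.73 and 4.03 CPM in KO, and 31.98, 23.7 and 32.3 CPM in G77S. The groups again did not overlap, but here G77S was highest and KO lowest. Gtse1 rose in G77S against KO by 2.59 on the log2 scale (SE 0.42, 6.01-fold, adjusted p = 0.00911). Without KO replicate 2 the value was 2.35 and the adjusted p 0.0718. Against WT the log2 fold change was 0.99 in G77S (SE 0.34, adjusted p = 0.132, and 0.031 with DESeq2) and -1.60 in KO (SE 0.40, adjusted p = 0.153, and 0.00294 with DESeq2). Values for the G2 and mitosis genes as a list are given below.

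Cdkn1a (chromosome 17, 29090976 to 29100727, plus strand) encodes p21, which blocks the cyclin-dependent kinases that drive entry into S phase. It stood at 82.1, 286.5 and 244.5 CPM in WT, at 104 and 34.8 CPM in KO, and at 138.2, 137.7 and 124.6 CPM in G77S. The WT libraries spanned the whole G77S range, and KO replicate 1 lay above WT replicate 1. None of the differences passed: KO against WT gave -1.56 (SE 0.54, adjusted p = 0.254), G77S against WT -0.61 (SE 0.46, adjusted p = 0.507) and G77S against KO 0.94 (SE 0.53, adjusted p = 0.339). With no low-count filter the KO difference passed (adjusted p = 0.00035). An opposite-strand gene that overlaps Cdkn1a had at most 1 count in any library.

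Ccng1 (chromosome 11, 40748552 to 40755311, minus strand) encodes cyclin G1, a p53 target that takes a phosphatase to MDM2. Its values were 191.8, 427.3 and 306.5 CPM in WT, 347.6 and 140.3 CPM in KO, and 150, 307.7 and 325.5 CPM in G77S. The 3 ranges overlapped throughout. The log2 fold changes were -0.34 (SE 0.46, adjusted p = 0.829) in KO and -0.24 (SE 0.41, adjusted p = 0.804) in G77S against WT, and 0.10 (SE 0.45, adjusted p = 0.933) in G77S against KO. Each of the 3 took the other sign under at least 1 alternative.

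Gadd45a (chromosome 6, 67035096 to 67037457, minus strand) is a stress gene whose product binds PCNA and CDK1 and has been linked to DNA demethylation. It had no counts in any WT library, 0.827 and 0.106 CPM in KO, and 3.50, 2.52 and 2.08 CPM in G77S. It rose in G77S against WT, at least 45.3-fold higher when 111 counts are set against a floor of 3 counts over the WT libraries (adjusted p = 0.0419). Without any of WT replicates 1, 2 or 3 the adjusted p was 0.0506, 0.0805 and 0.0903, and without any of G77S replicates 1, 2 or 3 it was 0.145, 0.136 and 0.0977. It was also lost with Y-linked genes as a covariate (0.0569) and with the replicate number as a block (0.0851). KO was at least 7.39-fold higher than WT on 16 counts (adjusted p = 0.21), and G77S against KO was 2.52 in log2 (SE 1.445, adjusted p = 0.364). An overlapping gene on the opposite strand, E230016M11Rik, had 7 counts in WT replicate 3, none in the other WT libraries or in KO, and 5.26 to 9.92 in the G77S libraries. Whether strand was used in counting is not given in the sources used here. Genes with at least 1 count numbered 15961 to 17560 in the G77S libraries and 14118 to 15758 in WT, and the part of this in a gene at the detection limit was not tested.

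Bax (chromosome 7, 45461697 to 45466898, minus strand), which forms the pore in the outer mitochondrial membrane, varied little between libraries. Its level was 150.1, 118.1 and 141.2 CPM in WT, 154.2 and 126.4 CPM in KO, and 181.5, 167.6 and 143.5 CPM in G77S. The WT and KO ranges overlapped, as did WT and G77S. Log2 fold changes were 0.04 (SE 0.23, adjusted p = 0.978) in KO against WT, 0.27 (SE 0.21, adjusted p = 0.53) in G77S against WT and 0.23 (SE 0.23, adjusted p = 0.635) in G77S against KO. The KO value was -0.16 on the TPM scale.

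Pmaip1 encodes NOXA, a BH3-only protein that binds and neutralises MCL1. Its level was 3.74, 5.26 and 5.19 CPM in WT, 32.0 and 11.9 CPM in KO, and 18.6, 24.3 and 33.75 CPM in G77S. All 5 libraries of the other genotypes stood above all 3 WT libraries. Pmaip1 rose in G77S against WT by 2.43 on the log2 scale (SE 0.46, 5.40-fold, adjusted p = 0.0207). The value ranged from 2.19 to 2.61 when any one library of those groups was left out. The adjusted p was then above 0.05 without WT replicate 2 (0.0657) or 3 (0.0574) and without G77S replicate 1 (0.0505), 2 (0.0787) or 3 (0.0791). In KO against WT the fold change was about as large, 2.215 (SE 0.49), but with an adjusted p of 0.119. It passed with no filter (0.00281) and with DESeq2 (0.00167). G77S against KO was 0.22 (SE 0.49, adjusted p = 0.848). In WT replicate 3 the weighted transcript length was 1916 bases, against 2679 to 2727 elsewhere.

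Bbc3 (chromosome 7, 16308393 to 16318205, plus strand), which encodes the BH3-only protein PUMA, was barely detected. It had no counts in WT, 0.354 and 0 CPM in KO, and 1.12, 0.476 and 0.0868 CPM in G77S. Against the floor of 3 counts over WT, G77S was at least 9.79-fold higher on 24 counts and KO at least 2.77-fold higher on 6 counts. Neither was tested, and KO replicate 2 had no count either.

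Phlda3 (chromosome 1, 135766119 to 135769136, plus strand) encodes a small membrane-binding protein that restrains AKT signalling. It stood at 35.7, 24.1 and 17.8 CPM in WT, 28.3 and 10.9 CPM in KO, and 37.9, 38.0 and 47.0 CPM in G77S. All G77S libraries were above all others, by a small margin over WT replicate 1. The log2 fold change was 0.66 (SE 0.41, adjusted p = 0.399) in G77S and -0.40 (SE 0.46, adjusted p = 0.789) in KO against WT. In G77S against KO it was 1.06 (SE 0.47, adjusted p = 0.228). The weighted transcript length was 1161 to 1242 bases in G77S and 1333 to 1435 bases elsewhere.

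**Figure D3:**
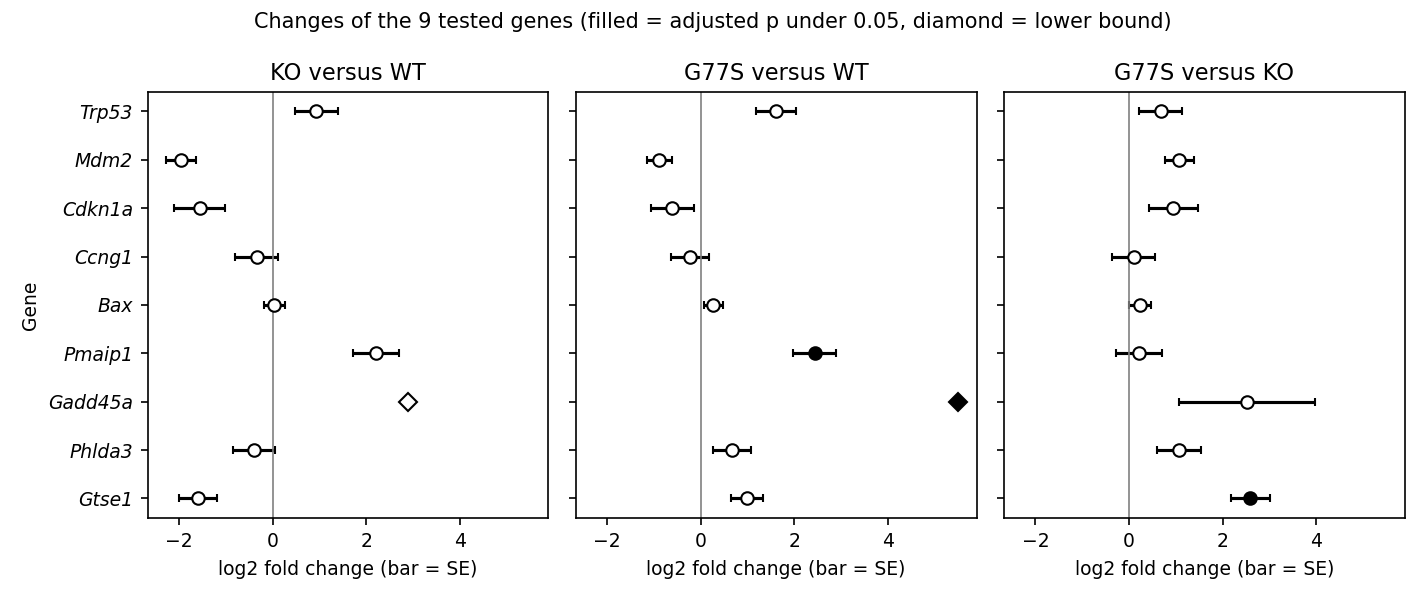
Log2 fold change of the 9 tested genes in each comparison, with bars of 1 SE; filled points passed the adjusted p threshold and diamonds are lower bounds for Gadd45a. Pmaip1 and Gadd45a are filled in G77S against WT and Gtse1 in G77S against KO.

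Cdkn1a, Ccng1, Bax and Phlda3, together with Trp53 and Mdm2, thus passed in no comparison under the main settings, and all 3 calls of the set were in comparisons with G77S. Across the 8 libraries, the correlation of log2 CPM was 0.92 between Trp53 and Gadd45a, 0.82 between Trp53 and Pmaip1 and -0.448 between Trp53 and Mdm2. These are given as a description since libraries of a genotype are not independent of each other here. Gadd45a had no counts in any WT library, so its log2 CPM there was set by the small count added before logs were taken. The value of 0.92 thus depends on that floor and on the KO and G77S libraries. Of 5751 genes with a mean of at least 10 CPM and a conventional symbol, those most like Trp53 were Dmap1 (Pearson r = 0.977 over 8 libraries), Dalrd3 (0.970) and Rps9 (0.960). Those most like Cdkn1a were Fam177a (0.9845), Smdt1 (0.963) and Cgn (0.963).

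Genes that act on p53 formed a list of 18, of which 15 were tested. None was called in KO against WT (median log2 fold change 0.06, with 2 of 15 at an unadjusted p under 0.05, against 13% of all genes). In G77S 1 of 15 fell against WT, where 2.09% of all genes fell, and 1 of 15 against KO, where 2.43% did. Both times it was Mdm4, a partner of MDM2 that masks the activating domain of p53. It stood at 80.2, 96.5 and 53.1 CPM in WT, 88.8 and 80.3 CPM in KO, and 35.3, 34.3 and 35.2 CPM in G77S. The G77S libraries lay close together and below all others. The log2 fold change was -1.13 against WT (SE 0.27, adjusted p = 0.0489) and -1.275 against KO (SE 0.29, adjusted p = 0.0385). The call against WT was lost without any one library other than WT replicate 3, with adjusted p from 0.0631 to 0.192. It was also lost with only 2 groups fitted (0.0534), with the Y-linked covariate (0.0547), with the replicate block (0.0746) and on the TPM scale (0.127). The call against KO was lost without any one KO or G77S library (0.103 to 0.146), with the Y-linked covariate (0.0602), with the block (0.0923) and on the TPM scale (0.0645). The list medians were -0.36 against WT and 0.03 against KO.

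Of 30 further p53 targets, 28 were tested. None was called in KO against WT (median -0.19, with 5 of 28 at an unadjusted p under 0.05, against 13% of all genes). In G77S 2 of 28 rose against WT, where 1.3% of all genes did, and 2 of 28 against KO, where 1.76% did. None fell (2.09% and 2.43% of all genes), and the medians were -0.02 and 0.49. Psrc1, a microtubule-binding protein of the spindle, rose in G77S against WT by 1.98 (SE 0.33, adjusted p = 0.0118), from 16.2, 29.1 and 14.2 CPM to 89.0, 70.2 and 74.4 CPM. KO stood at 29.8 and 29.9 CPM, just above the highest WT library. Its adjusted p was 0.0581 without G77S replicate 1 and 0.0534 without replicate 2.

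Abhd4, a lipid hydrolase, rose in G77S against both groups. Its CPM was 40.9, 27.8 and 30.6 in WT, 19.7 and 9.59 in KO, and 103.4, 91.9 and 85.6 in G77S. The log2 fold change was 1.5 against WT (SE 0.32, adjusted p = 0.0333) and 2.68 against KO (SE 0.39, adjusted p = 0.00614). The call against WT was lost without WT replicate 2 (0.0985) or 3 (0.0971) and without G77S replicate 1 (0.126), 2 (0.116) or 3 (0.0813), and that against KO was kept in all 17 alternatives.

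Plk3, a stress-responsive kinase, had no counts in KO, against 1.115, 2.18 and 6.76 CPM in WT and 2.52, 2.86 and 1.65 CPM in G77S. It rose in G77S against KO, at least 28.6-fold higher on 97 counts (adjusted p = 0.0318). With no KO counts, its difference from KO could only be positive. Its call, and the count of 2 of 28 in G77S against KO that includes it, are thus a description only. WT was at least 45.25-fold higher than KO on 188 counts (adjusted p = 0.105). The G77S call was lost without KO replicate 1 (0.114) or 2 (0.141), without G77S replicate 1 (0.0876), 2 (0.0973) or 3 (0.0701), with the replicate block (0.0604) and on the TPM scale with a pseudocount of 1 (0.0872).

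**Figure D4:**
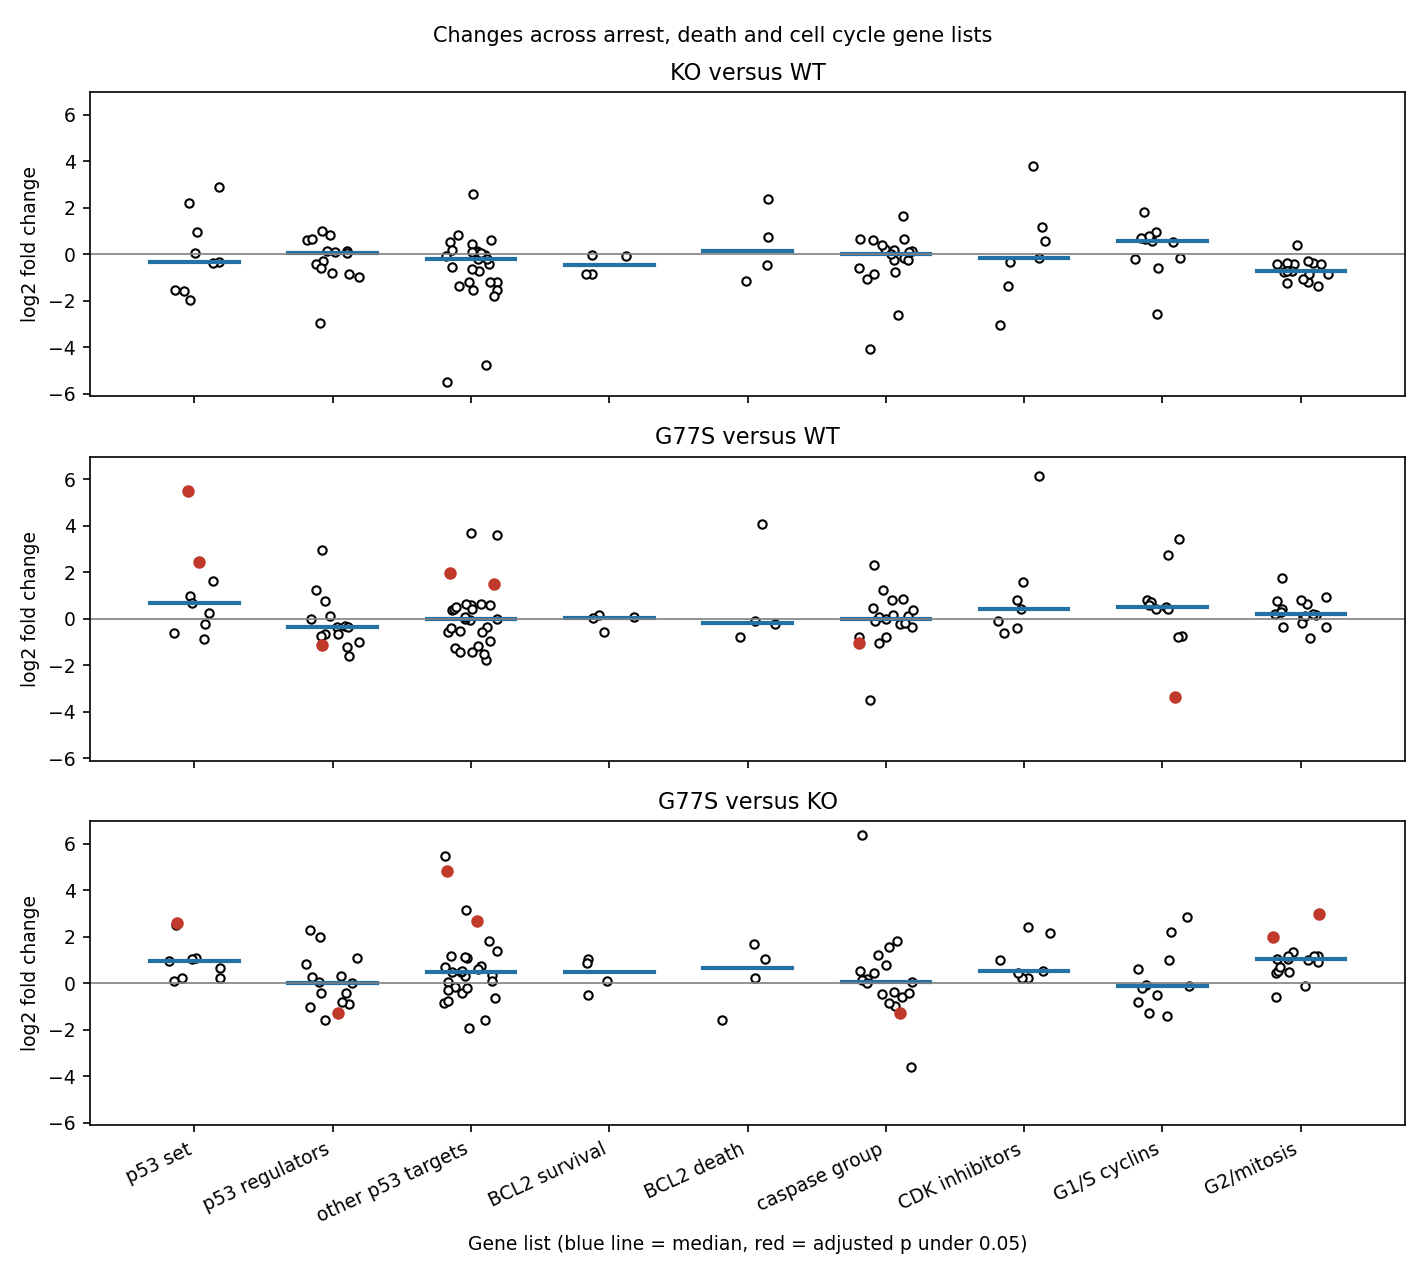
Log2 fold change of every tested gene of the p53 set and 8 related lists in the 3 comparisons, with blue lines at list medians and red points past the adjusted p threshold; genes with 0 to 3 counts in a group are drawn at their bound or count ratio. G2 and mitosis genes have a median of -0.71 in KO against WT, with 15 of 16 below 0, and of 1.03 in G77S against KO, with 14 of 16 above 0.

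The BCL2 family outside the p53 set gave no calls, and unadjusted p-values under 0.05 numbered 2, 1 and 3 among its 8 tested genes in KO against WT, G77S against WT and G77S against KO (13%, 20% and 20.7% of all genes). Of 8 pro-survival genes 4 were tested, with medians of -0.46, 0.05 and 0.50 in the same order. Mcl1, the partner of NOXA, stood at 35.6, 30.1 and 40.7 CPM in WT, 20.96 and 18.1 CPM in KO, and 38.4, 38.6 and 31.7 CPM in G77S. KO lay below all other libraries, and its difference from WT was -0.86 in log2 (SE 0.32, adjusted p = 0.296). Bcl2l1, which encodes BCL-XL, stood at 9.14 to 10.3 CPM in WT replicates 1 and 2 and 6.58 CPM in WT replicate 3, and at 8.21 and 1.32 CPM in KO. Of 8 pro-death genes 4 were tested, with medians of 0.15, -0.16 and 0.65. Bad ran from 60.6 to 110.1 CPM in WT, 63.4 and 70.7 CPM in KO and 65.2 to 88.8 CPM in G77S, and Bok, a BAX relative, from 28.6 to 87.4 CPM, 21.1 and 29.4 CPM, and 48.5 to 55.7 CPM. The ranges of Bad and Bok overlapped between WT and each other group. Bcl2l11 averaged 0.61 CPM in WT, 2.96 in KO and 9.65 in G77S, and did not overlap between WT and either group. Its log2 fold change against WT was 4.07 in G77S (SE 1.15, adjusted p = 0.08) and 2.37 in KO (SE 1.16, adjusted p = 0.414). Of the 4 tested pro-death genes, 3 were negative in G77S against WT and 2 in KO against WT.

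Caspases, the apoptosome, their inhibitors and nucleases made a list of 19, all tested. None was called in KO (median 0.01, with 3 of 19 at an unadjusted p under 0.05, against 13% of all genes). Cycs alone fell, as 1 of 19 in G77S against WT (2.09% of all genes) and against KO (2.43%), with list medians of -0.00 and 0.04. Cycs encodes cytochrome c, which carries electrons in respiration and starts the apoptosome once released. It stood at 1266, 1450 and 2265 CPM in WT, 1684 and 2147 CPM in KO, and 682, 782.7 and 937.1 CPM in G77S. The log2 fold change was -1.05 against WT (SE 0.25, adjusted p = 0.0454) and -1.26 against KO (SE 0.27, adjusted p = 0.0281). On the TPM scale these became -0.05 (adjusted p = 0.91) and 0.02 (adjusted p = 0.966). The call against WT was also lost without WT replicate 2 or 3 or any one KO or G77S library, and that against KO without any one KO or G77S library, with adjusted p from 0.0558 to 0.173. Cycs has many processed copies in the genome, so reads may be split between them, and its values are uncertain.

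Of 8 CDK inhibitors and GADD45 genes outside the set, 7 were tested and none was called (medians -0.14, 0.40 and 0.55). Unadjusted p-values under 0.05 numbered 2, 1 and 1 of 7 in KO against WT, G77S against WT and G77S against KO, where 13%, 20% and 20.7% of all genes had one. Gadd45g stood at 20.7, 18.0 and 24.3 CPM in WT, 4.37 and 0.742 CPM in KO, and 9.73, 13.7 and 17.9 CPM in G77S. The genotypes did not overlap, and KO was lowest, at -3.04 against WT (SE 0.71, adjusted p = 0.135). Cdkn2d, an inhibitor of CDK4 and CDK6, was at 21.7 to 34.8 CPM in WT, 6.44 and 16.7 CPM in KO, and 14.3 to 31.9 CPM in G77S.

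All 11 genes of the G1 and S phase list were tested. None was called in KO (median 0.58) or in G77S against KO (median -0.12), with 3 and 5 of 11 at an unadjusted p under 0.05 (13% and 20.7% of all genes). Ccng2 fell in G77S against WT, 1 of 11 where 2.09% of all genes fell (list median 0.51). The list as a whole lay mostly the other way there, with 8 values positive and 3 negative. Groups did not overlap for 5 higher genes (17.2% of all genes) and 2 lower genes (11.8%). An unadjusted p under 0.05 was seen in 6 of 11, against 20% of all genes. Ccng2 encodes cyclin G2, a relative of Ccng1 known for slowing the cycle. It stood at 15.6, 19.4 and 38.4 CPM in WT, 2.72 and 5.51 CPM in KO, and 2.31, 1.70 and 3.12 CPM in G77S. All libraries of the other genotypes lay below WT, with log2 differences of -3.36 in G77S (SE 0.55, adjusted p = 0.0106) and -2.57 in KO (SE 0.62, adjusted p = 0.138). The G77S call was lost without G77S replicate 1 (0.0581) or 2 (0.0697). It moved unlike Ccng1, whose ranges overlapped in all groups.

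All 16 G2 and mitosis genes were tested. In KO against WT 15 of 16 values were negative, Ccnb2 being the exception at 0.40, and none was called (median -0.71, against -0.06 over all genes). An unadjusted p under 0.05 was seen in 4 of 16, against 13% of all genes. In G77S against WT none was called (median 0.21, with 3 of 16 under that p, against 20%), and in G77S against KO 2 of 16 rose, where 1.76% of all genes did (median 1.03). Aurka, a spindle-pole kinase, stood at 225.7, 451.4 and 308.7 CPM in WT, 132.5 and 150.7 CPM in KO, and 515.9, 422.3 and 736.7 CPM in G77S, and rose against KO by 1.98 (SE 0.34, adjusted p = 0.012). Plk1, a mitotic kinase, stood at 19.7, 19.3 and 11.4 CPM in WT, 4.02 and 10.01 CPM in KO, and 55.6, 35.4 and 76.8 CPM in G77S, and rose against KO by 2.99 (SE 0.54, adjusted p = 0.0155). As for Gtse1, the mean was lowest in KO and highest in G77S, but for Aurka the WT and G77S ranges overlapped. Without KO replicate 1 the adjusted p was 0.0878 for Aurka and 0.0877 for Plk1. It was 0.0803 for Aurka without KO replicate 2 and 0.0551 for Plk1 without G77S replicate 3.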

How the data were processed

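Each library has 1 gene table, with columns for expected counts (estimates that split a read among the genes it fits), TPM, FPKM, length and effective length, per the file headers. DESeq2 1.42.1, RSEM 1.3.1, STAR 2.6.1c, Trim Galore 0.4.5 and the builds GRCm38 and mm10 are listed in the submitters' processing notes. Which annotation release the authors used is not given in the sources used here. Library-wise scaling by the authors underlies the deposited TPM and FPKM values, and FPKM was not used. Fragment length is the deposited length minus effective length, plus 1.

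GENCODE's GRCm38 annotation gave symbols and 1-based coordinates and covered 55230 of 55471 identifiers (99.6%). Rounded expected counts went into edgeR 4.0.16 (R 4.3.3), where 13953 genes passed filterByExpr by genotype and libraries were scaled with TMM. A quasi-likelihood model with 1 mean per genotype was fitted to all 8 libraries, p-values were adjusted by Benjamini-Hochberg over all tested genes, and a gene was called below 0.05. Unless a sentence names another tool, its p-value is edgeR's. SEs were obtained as the absolute log2 fold change over the square root of the F statistic. CPM used the TMM-scaled library sizes. The common biological coefficient of variation was 0.655. Where a group had no counts, its floor was 3 counts over the whole group and the fold is a minimum. Amplified reads without molecular identifiers are not independent molecules, so floors cover counting error only. The steps were tested on simulated counts. Libraries of a group were compared, and none were identical.

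The 10 genes and all lists were chosen with earlier results of these data known, so no list was tested as a set, and calls in a list are given beside the share of all genes called. From each other list, every called gene is named (up to 6), and otherwise its 2 genes of highest mean CPM. Bcl2l11 was added to these for its large fold change. Fits were repeated with RLE scaling, without a filter, with a stricter one (at least 5 CPM in 2 or more libraries), on 2 groups at a time, with replicate number as a block or Y-linked CPM as a covariate, with DESeq2 1.42.0, with limma 3.58.1 on log2 TPM (pseudocounts 1 and 0.1), and leaving out each library. The p53 decamer was searched in RefSeq promoter windows.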

Additional observations from a re-analysis of the deposited data

How the results depend on the processing

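Counts of called genes depended on the filter and tool. In KO against WT the 17 genes became 547 with no filter, 60 with the stricter filter, 11 with only 2 groups, 8 with the replicate block, 650 with DESeq2, 95 on TPM + 1, 86 on TPM + 0.1 and 0 to 42 with a library left out. In G77S against WT the 473 became 1336 with no filter, 746 with the stricter filter, 1538 with DESeq2, 1466 and 1307 on the 2 TPM scales and 86 to 638 with a library left out. In G77S against KO the 585 became 1411 with no filter, 1009 with only 2 groups, 1700 with DESeq2, 1849 and 1744 on the TPM scales and 161 to 949 with a library left out. The fit with limma on TPM + 1, which changes both scale and tool, moved the split of higher and lower calls in G77S against WT from 182 and 291 to 1178 and 288, and against KO from 246 and 339 to 1543 and 306, and in KO against WT from 11 and 6 to 57 and 38. There the median log2 fold change of all genes was -0.12 in KO against WT, 0.235 in G77S against WT and 0.34 in G77S against KO, so changes on that scale are relative to this shift.

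Among the 10 genes, KO against WT went from 0 calls to 3 with no filter or DESeq2, 1 with the stricter filter, 1 on either TPM scale and 0 to 1 with a library left out. G77S against WT went from 2 to 1 with the replicate block or the Y-linked covariate, to 5 with DESeq2, to 3 with no filter, only 2 groups or either TPM scale (Trp53 added in each) and to 0 to 2 with a library left out. G77S against KO went from 1 to 2 with the stricter filter or DESeq2, 4 on either TPM scale and 0 to 1 with a library left out. Pmaip1 in G77S was called in 12 of 17 alternatives, Gadd45a in 8 of 16 (the stricter filter removes it, and its 2 calls are Trp53 and Pmaip1) and Gtse1 in G77S against KO in 16 of 17. Where the set gained calls under another filter, tool or scale, calls over all genes rose too. Those were made over 22958 genes with no filter, 8664 with the stricter filter and 13953 with DESeq2 or on TPM. With only 2 groups, 326 rose and 340 fell of 11827 genes in G77S against WT. The stricter filter gave 391 higher and 455 lower in G77S against KO. Call counts of the set are thus a description only. The median of the set in KO against WT ran from -1.13 to 0.17 with a library left out. It was 1.14 and 1.22 on the TPM scales in G77S against WT, 1.51 on TPM + 0.1 in G77S against KO, and 0.36 to 1.52 there with a library left out.

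Sign changes touched genes that were not called, save Cycs in G77S against KO (0.021 on both TPM scales). Bax in KO against WT was -0.16 on both TPM scales and -0.11 to 0.18 with a library left out. Ccng1 in G77S against WT was 0.089 on both TPM scales and -0.49 to 0.064 with a library left out, and in KO against WT -1.13 to 0.17. In G77S against KO it was -0.13 with the block and -0.41 to 0.89 with a library left out. Phlda3 in KO against WT ran from -1.24 to 0.13 and Pmaip1 in G77S against KO from -0.33 to 1.10. Of 641 single-gene alternatives, 528 kept direction and side of the threshold, 69 lost a call, 26 gained one and 18 changed sign. Why they did was not tested. Most of the 641 belong to results not called under the main settings, which count as kept while they stay uncalled. The 69 lost calls come from the called results alone, so the 528 do not measure how stable the calls are. Whether the replicate numbers pair the samples was not settled. Same-numbered libraries deviated together from their group means with correlations from -0.0179 to 0.0646, and differently numbered ones from -0.0646 to 0.0511. Deviations from a group mean cancel within the group by construction, so these values cannot exclude a shared litter or batch. The block is therefore a description only. With a KO library left out, the remaining one is assumed to vary like the other groups.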
